A study of Drosophila melanogaster with 73 samples.

Results

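Transcript levels of 10 genes that modify the circadian clock at the protein level, or that partner its transcription factors, were followed in abdominal fat bodies of female Drosophila melanogaster. The genes were taken by symbol from the deposited table of 23932 genes: cyc, dbt, sgg, CkIIalpha, CkIIbeta, nmo, slmb, mts, tws and jet. All 10 were found, with dbt listed under its other symbol dco, and all 10 were among the 7358 genes that passed the filter on low values (a median above 5 TPM, a transcript's length-scaled share of its library, at 18°C or 25°C on days 4-5). For nmo this held only through 18°C, where its median was 8.29 TPM, against 4.51 TPM at 25°C.

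The 73 libraries came from mated flies of Iso31, an isogenic w1118 strain, entrained to light and dark at 25°C. At 7 days of age the flies were either shifted to 18°C or kept at 25°C, still in light and dark. Days count from the shift. On days 4-5, 24 libraries were taken at 18°C and 26 at 25°C, and on days 1-2, 18 were taken at 18°C and 5 at 25°C, which made 4 groups. Each library pooled the dissected fat bodies of several flies taken at 1 zeitgeber time (ZT, hours after lights on). The labels do not say which libraries shared a culture, so the p-values below measure only the spread between these libraries.

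In the fly clock, the transcription factors Clock and cycle (cyc) switch on period and timeless, whose proteins later enter the nucleus and repress them. The delay of this loop is set after transcription. The kinases doubletime (dbt), shaggy (sgg), casein kinase 2 (catalytic subunit CkIIalpha, regulatory subunit CkIIbeta) and nemo (nmo) phosphorylate Period, Timeless or Clock. Protein phosphatase 2A, with its catalytic subunit microtubule star (mts) and its regulatory subunit twins (tws), removes phosphate from Period. The F-box proteins supernumerary limbs (slmb) and jetlag (jet) hand phosphorylated Period and light-activated Timeless to ubiquitin ligases. The transcripts of these modifiers are generally not regarded as part of the oscillation itself.

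Some libraries stood apart before any comparison. The summed level of 8 germline markers (vas, nos, osk, aub, bam, otu, bgcn, zpg) ranged between 1.31 and 719.82 TPM at 18°C on days 4-5, against 1.43 to 183.43 TPM at 25°C. The germline sum was above 100 TPM in 9 of 24 and 2 of 26 libraries of those groups, and in 4 of 18 and 2 of 5 libraries on days 1-2 at 18°C and 25°C. On days 4-5, summed eggshell markers reached 13706 TPM at 18°C and 7286 TPM at 25°C, and summed gut markers 5409 and 8354 TPM. These sums were also high in some libraries under 100 TPM of germline markers. At 18°C, ZT22 of day 4 had 3188 TPM of eggshell and 14.7 TPM of germline markers. Leaving out libraries by the germline sum therefore does not remove all eggshell or gut signal. Summed fat body markers lay between 21109 and 55861 TPM. The yolk protein genes Yp1, Yp2 and Yp3 had the highest medians of that list (14111.5, 12756.7 and 11252.4 TPM). Those of AkhR and Lsp2 were 128.5 and 10.8 TPM. Summed oenocyte markers lay between 19733 and 32387 TPM. None of the marker lists for germline, eggshell, gut, muscle, hemocyte and neuron had a gene at 0 in all libraries. For the genes listed at the start, temperature differences in mean level on days 4-5 are given with and without libraries above 100 TPM. That threshold on the germline sum was chosen after the data were seen. For other genes named below, these differences are given with all libraries only.

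Levels of the 10 genes differed by more than an order of magnitude, and TPM, which is scaled by transcript length, allows them to be ranked. Over all 73 libraries the median was 157 TPM for mts, 80.4 for CkIIalpha, 72.2 for sgg, 50.3 for CkIIbeta, 42.5 for tws, 35.6 for dbt, 34.5 for slmb, 30.5 for cyc, 14.98 for jet and 5.90 TPM for nmo. The order was the same in nearly every library at the top and at the bottom: mts exceeded CkIIalpha, and cyc exceeded jet, in 73 of 73 libraries, and jet exceeded nmo in 69. Neighbours in the middle overlapped, since dbt exceeded slmb in 53 of 73 libraries and slmb exceeded cyc in 52.

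**Figure D1:**
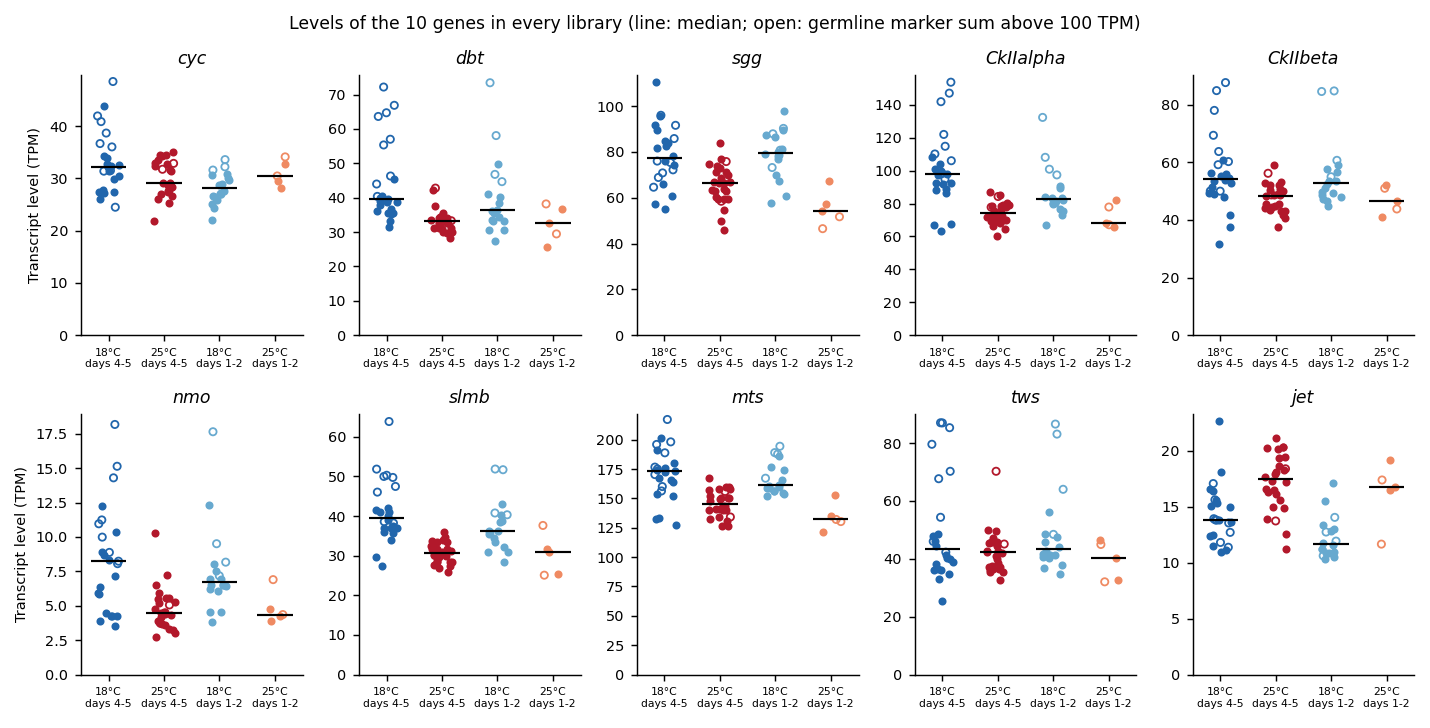
Transcript level in TPM (y axis) of each gene in every library of the 4 groups (x axis); points are libraries, lines are group medians and open points are libraries with more than 100 TPM of summed germline markers. Median CkIIalpha was 98.1 TPM at 18°C and 74.0 TPM at 25°C on days 4-5, and the highest tws values were open points.

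The first comparison asked whether these transcripts settled at another level in the cold. On days 4-5, 7 of the 9 genes with a median above 5 TPM at both temperatures were higher at 18°C, jet was lower, and tws did not pass the test. The rises lay between 0.14 and 0.42 on the log2(TPM + 1) scale used for all differences here, with the largest in CkIIalpha, slmb and dbt. The 10th gene, nmo, was tested only because its median at 18°C passed the filter, so its higher level there is a description. Such differences were common, as 50.7% of the 7358 tested genes differed (limma moderated test with shared 24 h cosine and sine terms, Benjamini-Hochberg adjusted p under 0.05), 35.3% higher and 15.5% lower. Of those calls 69.6% were higher at 18°C, and 53.8% after libraries were rescaled to a common median ratio. The median difference was 0.24 over the 10 genes, nmo included, and 0.09 over all tested genes.

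The partner of Clock, cyc (FBgn0023094, chromosome 3L, 19813770 to 19815938), changed least among the genes that passed. Its level lay between 24.5 and 48.5 TPM with a median of 32.3 TPM at 18°C, and between 21.9 and 34.96 TPM with a median of 29.1 TPM at 25°C. The ranges overlapped widely, with 7 of 24 libraries at 18°C above every library at 25°C. The difference was 0.14 (SE 0.058, limma adjusted p = 0.0376), and cyc was higher at 18°C in 16 of 24 pairs of libraries matched by replicate number, day and ZT. Without the libraries above 100 TPM of germline markers the difference was 0.06 (limma adjusted p = 0.422), and after rescaling it was 0.07 (limma adjusted p = 0.202).

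Among the Period kinases, dbt (FBgn0002413, chromosome 3R, 31054085 to 31061210), a casein kinase 1 whose mutants gave short- and long-period flies, had 31.5 to 72.2 TPM with a median of 39.7 TPM at 18°C. At 25°C it had 28.2 to 42.8 TPM with a median of 33.1 TPM. All but 1 of the 24 libraries at 18°C lay above the median at 25°C, while 15 of them still lay inside the range at 25°C. The difference was 0.39 (SE 0.066, limma adjusted p = 3.75e-06), with dbt higher in 22 of 24 pairs. It was 0.20 (SE 0.040, limma adjusted p = 0.000129) without the libraries above 100 TPM of germline markers.

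The glycogen synthase kinase 3 homologue sgg (FBgn0003371, chromosome X, 2633952 to 2679553), which phosphorylates Timeless, had 55.2 to 110.5 TPM with a median of 77.1 TPM at 18°C, against 45.98 to 83.99 TPM with a median of 66.5 TPM at 25°C. At 18°C, 9 libraries were above all libraries at 25°C. The difference was 0.26 (SE 0.063, limma adjusted p = 0.000664), with sgg higher in 22 of 24 pairs, and 0.27 (limma adjusted p = 0.00413) without the libraries above 100 TPM of germline markers. Exons of sgg share 1470 bases, 11.8% of their length, with the gene lncRNA:CR45197 on the same strand.

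Both subunits of casein kinase 2 rose. The catalytic subunit CkIIalpha (FBgn0264492, chromosome 3L, 23097072 to 23103460) had 63.2 to 153.7 TPM with a median of 98.1 TPM at 18°C and 60.6 to 87.2 TPM with a median of 74.0 TPM at 25°C. Of the 24 libraries at 18°C, 20 were above every library at 25°C, the clearest separation among the 10 genes. The separation was weaker in replicate 2, whose libraries at 18°C had 66.9, 114.8, 67.7, 92.2 and 63.2 TPM. The difference was 0.42 (SE 0.065, limma adjusted p = 5.59e-07), and 0.27 (limma adjusted p = 0.000402) without the libraries above 100 TPM of germline markers. The annotation places 271 bases of its exons opposite a transposon insertion.

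The regulatory subunit CkIIbeta (FBgn0000259, chromosome X, 11792533 to 11801587) had 31.8 to 87.7 TPM with a median of 54.1 TPM at 18°C and 37.5 to 59.2 TPM with a median of 48.5 TPM at 25°C. Only 7 libraries at 18°C exceeded all those at 25°C, and 1 was below them all. The difference was 0.22 (SE 0.068, limma adjusted p = 0.00601) in all libraries, but 0.08 (limma adjusted p = 0.346) without those above 100 TPM of germline markers.

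The ratio of the subunit transcripts moved accordingly. CkIIalpha over CkIIbeta averaged 1.80 ± 0.11 at 18°C (SD, n = 24) and 1.57 ± 0.13 at 25°C (SD, n = 26) on days 4-5, and it was higher at 18°C in 22 of 24 matched pairs. The difference of the log2 ratio was 0.20 (two-sided permutation p = 2e-05, the smallest that 100000 resamples can give; adjusted p = 0.00016 over 8 ratio comparisons). It was 0.20 in replicate 1 alone and 0.20 in replicate 2 alone (exact permutation p = 0.0303), and 0.20 without the libraries above 100 TPM of germline markers. Being a quotient of TPM values within a library, it does not depend on how libraries are scaled.

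On days 1-2 the ratio did not differ between temperatures past the threshold. In the 17 libraries taken at 18°C after ZT00 of day 1 the ratio averaged 1.58 ± 0.15, against 1.54 ± 0.06 in the 5 libraries at 25°C (SD; log2 difference 0.03, exact permutation p = 0.576). Within 18°C, days 4-5 exceeded days 1-2 by 0.19 (permutation p = 4e-05, adjusted p = 0.00016), while within 25°C the periods differed by 0.03 (permutation p = 0.638). Whether the change between periods differed between temperatures was not tested.

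The kinase nmo (FBgn0011817, chromosome 3L, 7979046 to 8054147), was the least abundant of the 10 genes. It had 3.52 to 18.2 TPM with a median of 8.29 TPM at 18°C, against 2.74 to 10.3 TPM with a median of 4.51 TPM at 25°C. Its libraries overlapped over most of the range at 25°C, with 7 at 18°C above them all. Since it was tested only through its median at 18°C, a difference in this direction was built in. As a description, the difference was 0.66 (SE 0.118, limma adjusted p = 8.43e-06), with 20 of 24 pairs higher, and 0.39 (SE 0.122, limma adjusted p = 0.00866) without the libraries above 100 TPM of germline markers.

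The catalytic subunit of protein phosphatase 2A, mts (FBgn0004177, chromosome 2L, 7827650 to 7833576), had 127.6 to 217.3 TPM with a median of 173 TPM at 18°C and 126.4 to 167 TPM with a median of 145.6 TPM at 25°C. At 18°C, 15 libraries were above all those at 25°C. The difference was 0.23 (SE 0.043, limma adjusted p = 2.16e-05), with 22 of 24 pairs higher, and 0.17 (limma adjusted p = 0.00703) without the libraries above 100 TPM of germline markers.

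Its regulatory partner tws (FBgn0004889, chromosome 3R, 10126129 to 10139772) behaved otherwise. It had 25.2 to 87.0 TPM with a median of 43.4 TPM at 18°C, against 32.8 to 70.2 TPM with a median of 42.3 TPM at 25°C, so the medians nearly coincided and 12 of 24 libraries at 18°C lay on each side of the median at 25°C. The difference was 0.19 (SE 0.099, 95% interval -0.01 to 0.39, limma adjusted p = 0.103), and -0.06 (limma adjusted p = 0.476) without the libraries above 100 TPM of germline markers.

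The high tws values all fell in those libraries. In 10 of the 73 libraries tws was above 60 TPM, and their germline marker sums lay between 172 and 720 TPM, while tws reached at most 56.1 TPM in the libraries at or below 100 TPM. The ratio of mts to tws averaged 3.70 ± 0.92 at 18°C (SD, n = 24) and 3.50 ± 0.43 at 25°C (SD, n = 26), a log2 difference of 0.04 (permutation p = 0.613). Without the libraries above 100 TPM it averaged 4.24 ± 0.53 at 18°C (SD, n = 15) and 3.57 ± 0.33 at 25°C (SD, n = 24), a log2 difference of 0.24 (unadjusted permutation p = 4e-05). That cut was chosen after the data were seen. It took out the highest tws values, with 9 of 24 libraries at 18°C and 2 of 26 at 25°C. The second difference is therefore a description.

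The 2 F-box genes moved in opposite directions. slmb (FBgn0283468, chromosome 3R, 21119252 to 21127485), which recognises phosphorylated Period, had 27.3 to 63.8 TPM with a median of 39.5 TPM at 18°C and 25.8 to 36.1 TPM with a median of 30.7 TPM at 25°C. It was above all libraries at 25°C in 19 of 24 libraries at 18°C, and higher in 23 of 24 pairs, the most of any of the 10 genes. The difference was 0.40 (SE 0.057, limma adjusted p = 9.15e-08), and 0.26 (limma adjusted p = 4.11e-05) without the libraries above 100 TPM of germline markers.

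jet (FBgn0031652, chromosome 2L, 4948206 to 4949784), which acts on Timeless in the light response, was the gene that fell. It had 10.97 to 22.7 TPM with a median of 13.8 TPM at 18°C and 11.2 to 21.2 TPM with a median of 17.5 TPM at 25°C. The ranges coincided almost fully, but 22 of 24 libraries at 18°C were below the median at 25°C. The difference was -0.24 (SE 0.060, limma adjusted p = 0.000858), with jet higher at 18°C in 6 of 24 pairs only, and -0.22 (limma adjusted p = 0.0156) without the libraries above 100 TPM of germline markers. Its exons share 119 bases (8.19%) with betaggt-I on the opposite strand, and non-stranded libraries cannot tell the reads of the pair apart.

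**Figure D2:**
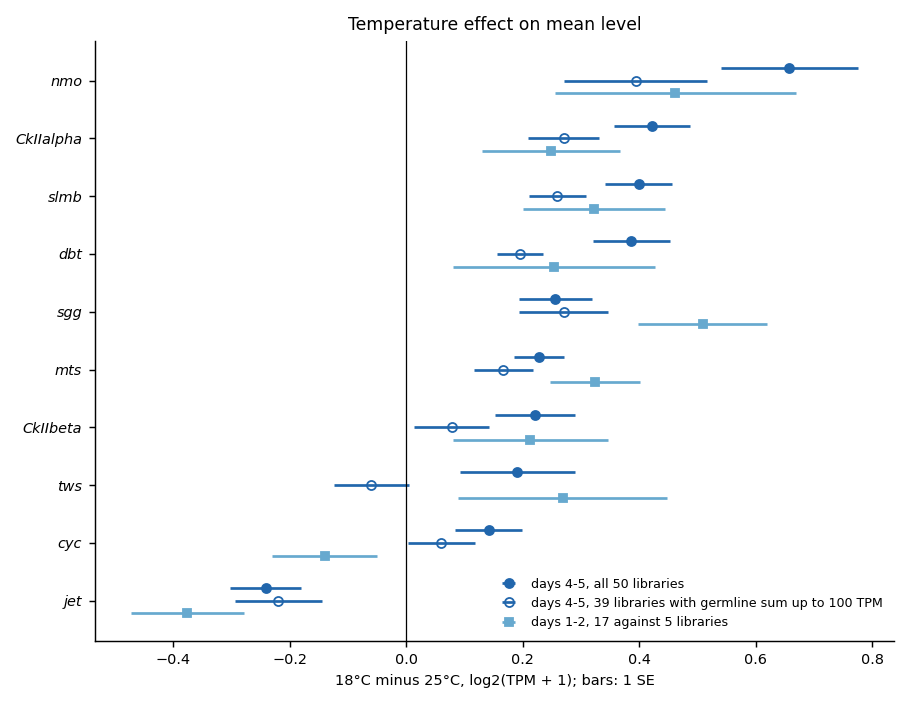
Difference in mean level, 18°C minus 25°C, in log2(TPM + 1) (x axis) for each gene (y axis); filled circles are all 50 libraries of days 4-5, open circles the 39 without high germline marker sums, squares days 1-2, and bars 1 SE. The open circle moved below 0 for tws and stayed at 0.27 for sgg and -0.22 for jet.

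Without the libraries above 100 TPM, 7 of the 10 genes, nmo included, passed the test (43.2% of all tested genes did), with cyc and CkIIbeta no longer among them. The same 7 passed with germline, eggshell and gut marker scores as covariates. The 2 replicate numbers were uneven. Replicate 1 alone, with 19 libraries at each temperature, gave 8 of the 10 genes, nmo included. The share of all tested genes is not given here for replicate 1 alone or for the marker scores. With all libraries it was 50.7%. Replicate 2 alone, with 5 libraries at 18°C and 7 at 25°C, gave 0 (4.48% of all tested genes passed there). Its differences were 0.33 for nmo, 0.30 for slmb, 0.26 for dbt, 0.17 for CkIIalpha and 0.15 for cyc. They were 0.12 for sgg, 0.08 for mts, -0.01 for CkIIbeta, -0.02 for tws and -0.10 for jet. Markers of other cell types also moved with temperature: 2 of 3 tested hemocyte markers, 3 of 5 tested muscle markers, 3 of 6 oenocyte markers and the 1 tested neuron marker were lower at 18°C, against 15.5% of all tested genes, and 1 oenocyte marker was higher. Summed hemocyte markers lay between 39.1 and 172 TPM at 18°C and between 59.4 and 258 TPM at 25°C, and summed muscle markers between 1268 and 4085 TPM at 18°C and between 1482 and 3714 TPM at 25°C, and the part of these markers in the differences was not tested.

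The germline marker sum followed some of the genes and not others. Across the 73 libraries the Pearson correlation of log2(TPM + 1) with the mean germline marker score was 0.68 for tws, 0.66 for dbt, 0.56 for CkIIbeta, 0.54 for cyc, 0.50 for CkIIalpha, 0.47 for slmb, 0.45 for nmo and 0.30 for mts. It was -0.01 for sgg and -0.09 for jet. These are descriptions over libraries that share groups and scaling. In bulk samples, more cells of a type and more RNA per cell cannot be told apart.

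**Figure D3:**
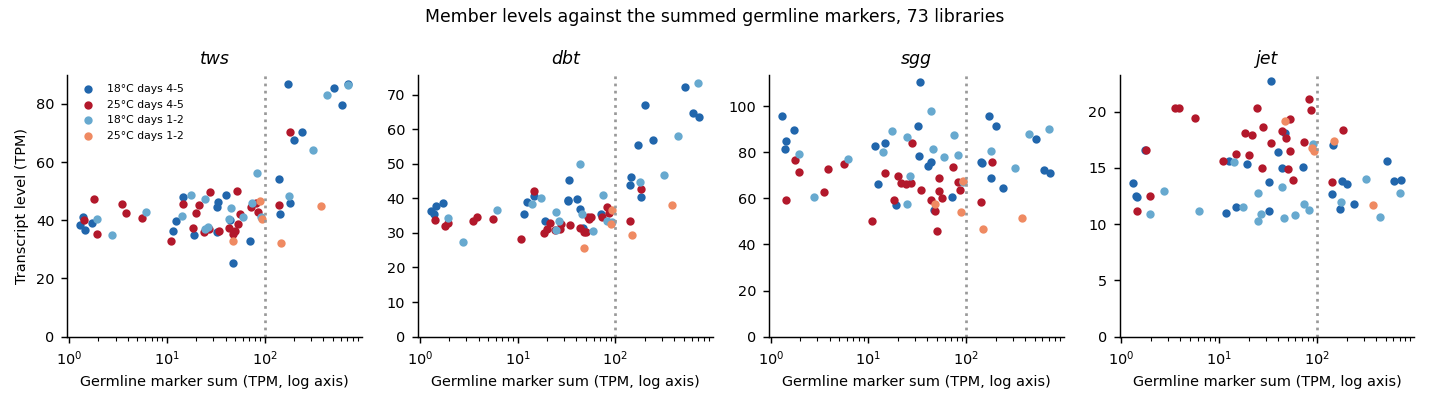
Level of tws, dbt, sgg and jet in TPM (y axis) against the summed TPM of 8 germline markers on a log axis (x axis) in 73 libraries, coloured by group; the dotted line marks 100 TPM. The 10 libraries with tws above 60 TPM all lay to the right of the line, whereas the highest sgg (110.5 TPM) and jet (22.7 TPM) values lay to its left.

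The spread between libraries was itself larger in the cold. The SD of log2(TPM + 1) on days 4-5 was larger at 18°C for 10 of 10 genes, with a median ratio of 1.96, and for 78.8% of all tested genes, with a median ratio of 1.33. The ratio was 2.55 for dbt and 2.54 for CkIIalpha, but 1.08 for jet. Without the libraries above 100 TPM of germline markers the SD was still larger at 18°C for 10 of 10 genes, with a median ratio of 1.39, and for 67.6% of all tested genes, with a median ratio of 1.15. The ratio was then 1.06 for dbt and 1.93 for CkIIalpha.

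Genes of the same machinery outside the 10 are set here against all tested genes, of which 35.3% were higher and 15.5% lower. Of 7 other subunits of protein phosphatases 2A and 1, 5 were higher at 18°C and 0 lower, among them the 2A regulatory subunits wdb (0.32, limma adjusted p = 9.07e-07) and wrd (0.31, limma adjusted p = 3.20e-07). Of 9 other ubiquitin pathway genes, 6 were higher and 0 lower, led by the signalosome subunit CSN5 (0.36, limma adjusted p = 1.36e-08). Of 6 other genes listed with casein kinases 1 and 2, 3 were tested. The kinases gish (0.32, limma adjusted p = 0.000186) and CkIalpha (0.14, limma adjusted p = 0.0141) were higher. CkIIalpha-i3, named as an interactor of CkIIalpha and not itself a casein kinase, was lower (-0.79, limma adjusted p = 2.96e-10). Of 10 tested clock modifiers, 3 were higher and 1 lower, shares near those of all tested genes, with nej (0.37, limma adjusted p = 0.00682) and sxc (0.31, limma adjusted p = 1.60e-08) leading. Bdbt, which binds the dbt kinase, was lower (-0.20, limma adjusted p = 0.00138).

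The second comparison asked whether the 10 transcripts cycled over the day. At 18°C on days 4-5, 0 of 10 passed the harmonic regression test (24 h period, F-test, adjusted p under 0.05), as did 1.78% of all tested genes. At 25°C it was also 0 of 10, against 5.04% of all tested genes. At an unadjusted p under 0.05 there was 1 gene at 18°C (nmo), against 27.4% of all tested genes, and there were 3 at 25°C (cyc, jet and dbt), against 22%. Of 7 core clock genes (per, tim, Clk, vri, Pdp1, cry, cwo) tested alike, 6 passed at 18°C and 7 at 25°C, with median amplitudes of 0.66 at both temperatures.

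**Figure D4:**
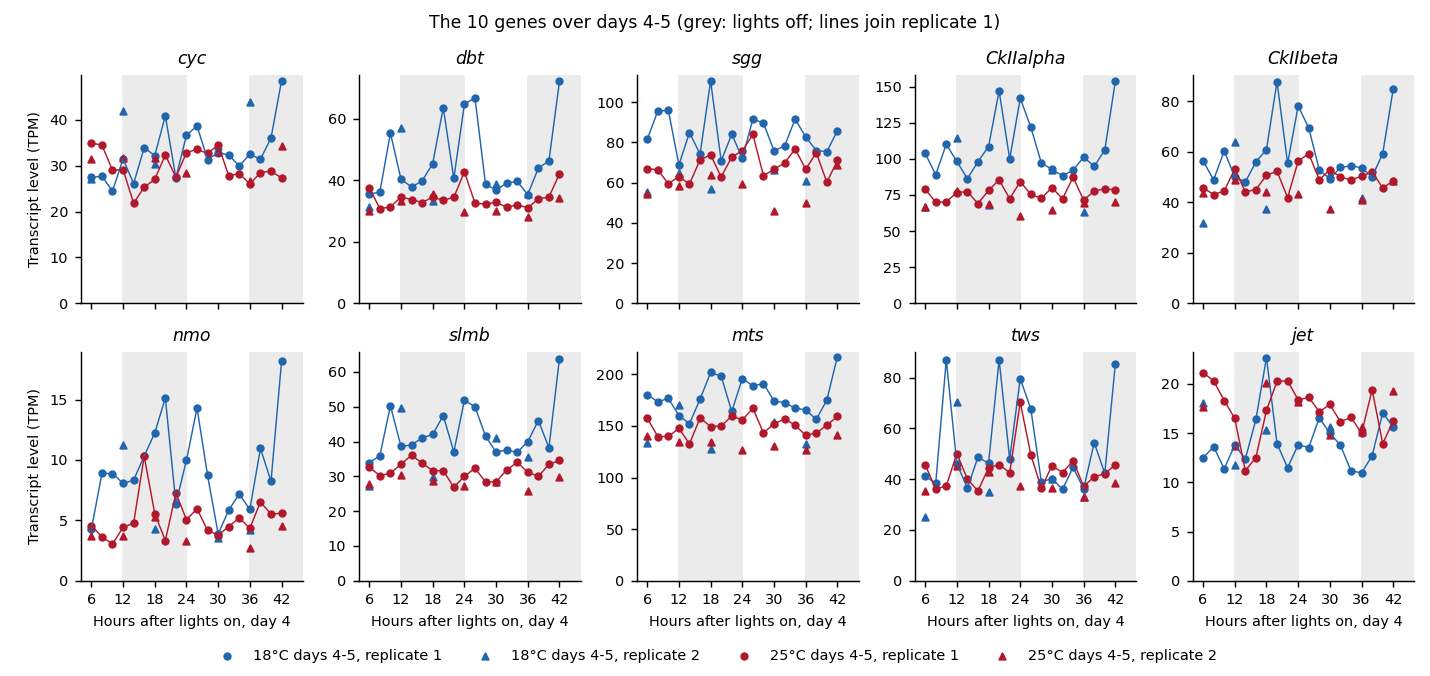
Level of each gene in TPM (y axis) by hours after lights on of day 4 (x axis); circles joined by lines are replicate 1, triangles replicate 2, and grey marks lights off. At 18°C, dbt (72.2 TPM) and CkIIalpha (153.7 TPM) were highest in the same library, ZT18 of day 5, where tws was also high. That library had 513 TPM of summed germline markers.

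The gene nearest to a rhythm was cyc at 25°C. Its fitted amplitude, the distance from the mean to the maximum, was 0.14 (SE 0.039), with a maximum at ZT 2.81 (harmonic regression adjusted p = 0.0837). At 18°C its amplitude was 0.12 (SE 0.068) with a fitted maximum at ZT 19.5 (adjusted p = 0.408). The rhythm difference between temperatures, tested with limma as a moderated F-test, missed the threshold (adjusted p = 0.314), as it did for the other 9 genes (0 of 10, against 0.435% of all tested genes). It was the one gene of the 10 with an unadjusted p under 0.05 there, which 14% of all tested genes had.

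For jet the amplitude was 0.12 (SE 0.072) at 18°C and 0.17 (SE 0.058, harmonic regression adjusted p = 0.175) at 25°C. Its lowest value at 25°C, 11.2 TPM, was at ZT14 of day 4, but it had 19.4 TPM at ZT14 of day 5. For dbt it was 0.23 (SE 0.096, adjusted p = 0.214) at 18°C and 0.09 (SE 0.034, adjusted p = 0.196) at 25°C. The largest fitted amplitude was that of nmo, with 0.42 (SE 0.148, adjusted p = 0.150) at 18°C and 0.22 (SE 0.086, adjusted p = 0.252) at 25°C. Without the libraries above 100 TPM of germline markers, the amplitude at 18°C was 0.065 (SE 0.051) for dbt and 0.27 (SE 0.156) for nmo. The other genes had amplitudes of 0.03 to 0.28 at 18°C and 0.03 to 0.11 at 25°C, and without those libraries the amplitudes at 18°C of CkIIalpha, CkIIbeta, tws and slmb were 0.10, 0.04, 0.14 and 0.04, against 0.22, 0.22, 0.28 and 0.12 with them. The count at 18°C stayed at 0 of 10. On days 1-2 at 18°C, 0 of 10 genes passed, against 0.0136% of all tested genes, and 0 had an unadjusted p under 0.05, against 7.07%.

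The third comparison concerned days 1-2. Only 3 time points after ZT00 of day 1 (ZT06, ZT12 and ZT00 of day 2) were sampled at both temperatures, with 1 library each, and there limma gave 0 of 10 genes and 0.00% of all tested genes. At an unadjusted p under 0.05 there was 1 gene, sgg (0.57, SE 0.218), against 12% of all tested genes. To use more libraries, the 17 libraries at 18°C after ZT00 of day 1 were set against the 5 at 25°C in a model with shared harmonics, which was chosen after the data were seen. There 3 of 10 genes passed, against 20% of all tested genes (13.1% higher, 6.88% lower).

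These were sgg, mts and jet. The level of sgg lay between 57.7 and 97.95 TPM in the 17 libraries at 18°C, against 46.5, 54.3, 51.7, 67.3 and 57.4 TPM at ZT00, ZT06, ZT12 and ZT18 of day 1 and ZT00 of day 2 at 25°C. In 15 of the 17 it was above all libraries at 25°C. The difference was 0.51 (SE 0.111, limma adjusted p = 0.00299).

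The level of mts lay between 152.4 and 194.5 TPM in the 17 libraries at 18°C, against 132.1, 121.1, 130.3, 152.9 and 135.3 TPM at those times at 25°C, and 16 of the 17 were above all of these. The difference was 0.32 (SE 0.077, limma adjusted p = 0.00548). For both genes the library at 18°C from ZT00 of day 1 was already the higher one, with 67.2 TPM against 46.5 TPM at 25°C for sgg and 156.2 TPM against 132.1 TPM for mts. Without the libraries above 100 TPM of germline markers (13 against 3 libraries), sgg (0.35, limma adjusted p = 0.108) and mts (0.24, limma adjusted p = 0.0801) missed the threshold.

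For jet the first libraries were alike, with 17.1 TPM at 18°C and 17.4 TPM at 25°C at ZT00 of day 1. At 18°C the level was 12.8 TPM at ZT02, 11.2 TPM at ZT04 and ZT06, 10.5 TPM at ZT08 and 10.3 TPM at ZT10. All 17 libraries after ZT00 of day 1, with 10.3 to 15.5 TPM, were below that of ZT00. At 25°C jet had 16.8 TPM at ZT06, 11.7 TPM at ZT12, 16.5 TPM at ZT18 and 19.2 TPM at ZT00 of day 2. The difference was -0.38 (SE 0.096, limma adjusted p = 0.00860), and -0.49 (SE 0.109, limma adjusted p = 0.0145) without the libraries above 100 TPM of germline markers.

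**Figure D5:**
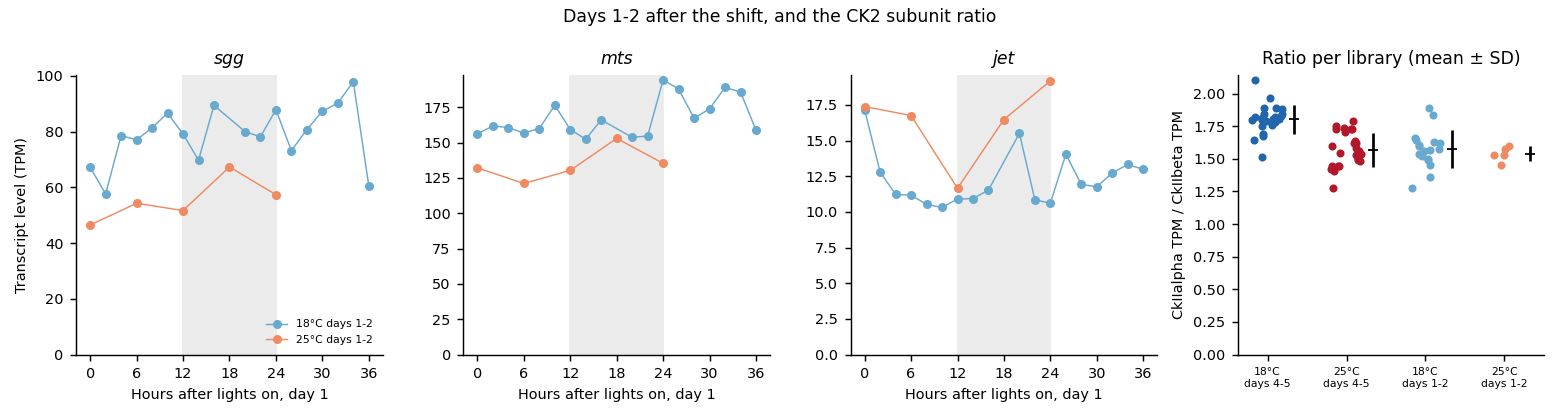
Level of sgg, mts and jet in TPM (y axes) over days 1-2 at 18°C and 25°C (x axes, hours after lights on of day 1; grey, lights off), and, on the right, CkIIalpha over CkIIbeta in every library by group, with mean and SD. All points of jet at 18°C after the first lay at or below 15.5 TPM, and the ratio averaged 1.80 only at 18°C on days 4-5.

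The other 7 genes did not pass on days 1-2. Differences were positive for slmb (0.32, 95% interval 0.07 to 0.58), nmo (0.46, 0.03 to 0.90), dbt (0.25, -0.11 to 0.62), CkIIalpha (0.25, with an interval from just above 0 to 0.50), CkIIbeta (0.21, -0.07 to 0.49) and tws (0.27, -0.11 to 0.64), and negative for cyc (-0.14, -0.33 to 0.05). Of these 7 intervals, that of cyc alone did not hold the gene's difference of days 4-5.

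The fourth comparison set the periods against each other within a temperature. At 18°C, jet was higher on days 4-5 than on days 1-2 by 0.23 (SE 0.067, limma adjusted p = 0.00830), with a median of 13.8 TPM (n = 24) on days 4-5 and 11.5 TPM in the 17 libraries of days 1-2 after ZT00 of day 1. The gene cyc was higher on days 4-5 by 0.21 (SE 0.070, limma adjusted p = 0.0231). These were 2 of 10 genes, against 30.0% of all tested genes (23.9% higher, 6.14% lower), whose median difference was 0.13. Of those calls 79.6% were higher on days 4-5, and 49.3% after rescaling.

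Rescaling put that median at 0.03, and neither gene passed then (jet 0.13, adjusted p = 0.212; cyc 0.10, adjusted p = 0.155, both limma). At 25°C, 0 of 10 genes passed, against 20.7% of all tested genes (77.8% of those calls were higher on days 4-5, and 47.6% after rescaling). The nearest was sgg, with a median of 66.5 TPM on days 4-5 and 54.3 TPM on days 1-2 (0.26, SE 0.094, limma adjusted p = 0.0505). The temperature effect differed between periods for 0 of 10 genes in a direct limma test over matched times of day, against 1.62% of all tested genes, with no gene of the 10 at an unadjusted p under 0.05 (16.7% of all tested genes were).

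Across the 73 libraries most of the genes moved together. The highest Pearson correlations of log2(TPM + 1) were 0.87 between dbt and slmb, 0.87 between CkIIalpha and CkIIbeta and 0.86 between dbt and CkIIalpha, and the libraries share groups and scaling. The exception was jet, which correlated negatively with every other gene but cyc, between -0.48 (slmb) and -0.24 (tws). CkIIalpha and CkIIbeta correlated at 0.96 within 18°C and at 0.63 within 25°C on days 4-5. Of those libraries 9 of 24 at 18°C and 2 of 26 at 25°C were above 100 TPM of germline markers. Correlations without them are not given here, and their part in the values was not tested.

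Outside the 10, the tested gene most alike over the 73 libraries was E(Pc) for dbt (0.95), CG14442 for slmb (0.92), lola for tws (0.91), Nipped-A for CkIIbeta (0.90), Mitf for CkIIalpha (0.90), Hrb27C for mts (0.90), Tl for nmo (0.89), Galphaq for sgg (0.88), morgue for cyc (0.77) and Pi3K59F for jet (0.76). The values for cyc and jet were well below the rest, so no other tested gene followed these 2 closely.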

How the data were processed

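RNA from abdominal fat bodies was made into non-stranded libraries. As the labels and the methods describe, the authors trimmed reads, aligned them with STAR 2.7.10a and quantified them with RSEM against the BDGP6 assembly, and deposited a table of TPM in which every column sums to the same total. TPM keeps no sequencing depth, so counting error is unknown and precision rests on the number of libraries. Reads were deduplicated for this experiment according to the methods, and whether the table holds that version is not given in the sources used here.

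TPM were transformed as log2(TPM + 1), which understates changes of low genes. Mean differences and rhythm differences were tested with limma 3.58.1 (R 4.3.3) and rhythms by harmonic regression, on 7358 genes with Benjamini-Hochberg adjustment over all of them. Ratios were tested by permutation (scipy 1.17.1). Alternatives varied the pseudocount, the filter, the scaling, replicates, blocks, weights and marker covariates. All tests were first tried on simulated data. Positions of genes were read from Ensembl's BDGP6.54 annotation of the same assembly. The 10 genes and all lists were chosen with earlier results of these data known. The genes named are the 10, for each the most correlated tested gene, and the listed genes with the largest changes past the threshold; gish, CkIalpha and CkIIalpha-i3, and the genes of the last observations, were named after their values were seen. No DNA or protein sequence was used here.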

Additional observations from a re-analysis of the deposited data

Results flagged for a closer look

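In the 1 group of 4 to 10 libraries, 25°C days 1-2 with 5 libraries, nmo at ZT12 of day 1 (6.9 TPM) stood farther from the other 4 libraries (3.88 to 4.75 TPM) than Dixon's criterion allows. The germline marker sum of that library was 375 TPM, the highest of its group, and its part in the value was not tested. Chance flags about 1 in 20 groups, and 10 genes were examined.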

How the results depend on the processing

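The count of genes differing between 18°C and 25°C on days 4-5 was 9. It includes nmo, whose direction was built in by the filter. With the filter raised to a median above 20 TPM, nmo and jet were not tested, so counts there cover fewer genes. The count lay between 7 and 9 under all alternatives but 1: without replicate 1 it was 0, and the range over leaving out each replicate number was 0 to 8. The difference of CkIIbeta was then -0.011 (limma adjusted p = 0.981), and 0.25 without replicate 2; no other gene that passed with all libraries changed sign there or under the other alternatives. The uncalled difference of tws was -0.02 without replicate 1, -0.0089 with marker scores and -0.06 without high-germline libraries. The rhythm counts of 0 became 2 at 18°C (CkIIalpha and CkIIbeta) and 1 at 25°C (cyc) without replicate 2. On days 1-2 the count of 0 became 1 with array weights (sgg), and 3, 1 and 6 with 17 against 5 libraries as they were, without libraries above 100 TPM of germline markers, and rescaled. Between periods at 18°C the count of 2 became 0 after rescaling. Between periods at 25°C the count of 0 became 1 with a median above 20 TPM, 1 with marker scores, 2 with array weights, 2 without replicate 2, and 2 without the library of ZT18 of day 1 at 25°C (sgg and mts). The causes were not tested. For most counts in this paragraph the share of all tested genes is not given. They therefore cannot be told apart from changes shared by all tested genes. The replicate number as a block left the days 4-5 count at 9 and rhythm counts at 0. Deviations of same-numbered replicates correlated at 0.196 between temperatures, and those of unlike numbers at -0.196. Over the 24 matched pairs of libraries the median correlation was 0.037 (lowest -0.466, highest 0.624). The labels give no shared batch. Rescaling moved the median of all tested genes by over 0.1 on days 1-2 (-0.05, against 0.16 as deposited), between periods at 18°C (0.03, against 0.13) and in the test of the temperature effect between periods (0.05, against -0.07). Marker covariates, and leaving out high-germline libraries, could not be fitted with 3 against 3 libraries. TPM sets no detection limit here.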

Other observations

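Among the other genes of these pathways, several differed between days 4-5 and days 1-2 at 18°C on the log2(TPM + 1) scale. The signalosome subunit CSN5 was higher on days 4-5 by 0.34 (SE 0.072, limma adjusted p = 0.000590), and Bdbt, which was lower at 18°C than at 25°C on days 4-5, was higher on days 4-5 than on days 1-2 by 0.26 (SE 0.079, limma adjusted p = 0.0128). The protein kinase A subunits Pka-R2 (-0.46, SE 0.130, limma adjusted p = 0.00751) and Pka-C1 (-0.32, SE 0.091, limma adjusted p = 0.00783) were lower on days 4-5. These values were not recomputed after rescaling.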
